A study of Homo sapiens with 12 samples.

Results

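The eIF4F complex and its helicase were followed through 10 genes in xenograft tumours that had been exposed to zotatifin, an inhibitor of eIF4A. The members were listed by name for their role in the complex. They are the helicase paralogs EIF4A1, EIF4A2 and EIF4A3, the cap-binding protein gene EIF4E, the scaffolds EIF4G1, EIF4G2 and EIF4G3, the helicase cofactors EIF4B and EIF4H, and the inhibitor PDCD4. All 10 were found, each on 1 transcript, among 19027 gene symbols on 19038 transcripts, and all 10 passed the filter on low counts in both assays.

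Cap-dependent translation begins when eIF4E holds the 5′ cap, an eIF4G scaffold joins it to the helicase eIF4A, and eIF4A unwinds the mRNA leader for the scanning ribosome. eIF4B and eIF4H stimulate the helicase, and PDCD4 binds eIF4A and keeps it from the scaffold. Zotatifin is known to clamp eIF4A onto purine-rich stretches of mRNA, so that the helicase stays in place there and is drawn away from other messages. Many cancers depend on high eIF4F activity, and PDCD4 is known as a tumour suppressor that is destroyed when growth signalling is high.

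The tumours came from 22Rv1, a human prostate cancer cell line, injected under the skin of male NSG mice, an immunodeficient strain, at 6 to 8 weeks of age. Treatment began at a tumour volume of 70 to 100 mm3. Zotatifin tumours received 0.3 mg/kg in 5% dextrose by intraperitoneal injection, vehicle tumours received 5% dextrose alone, and all were taken 6 h later. Ribosome footprints and RNA were sequenced from lysates of the tumours in 4 groups of 3 libraries: zotatifin footprints, vehicle footprints, zotatifin RNA and vehicle RNA. The titles call the 3 libraries of a group biological replicates. All tumours derive from 1 cell line, and host cells of the mouse remain in a tumour.

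Footprint libraries held 838135 to 1540867 counts with zotatifin and 1592316 to 2013968 with vehicle, and RNA libraries held 6594884 to 8153674 with zotatifin and 5761921 to 7121802 with vehicle. All 9 prostate epithelial markers were tested in both assays. Their summed footprint level was 5329 to 6163 CPM (counts scaled to the size of the library) with zotatifin and 4051 to 5344 CPM with vehicle. Markers of stroma moved with the treatment. Of 8 tested fibroblast markers, 5 fell and 0 rose in footprints, where 3.92% of all 9544 tested genes fell and 3.22% rose, and the summed level of all 10 was 147 to 272 CPM with zotatifin and 484 to 823 CPM with vehicle. In RNA that sum was 72.8 to 135 CPM with zotatifin and 227 to 370 CPM with vehicle. Of 4 tested myeloid markers, 2 fell and 0 rose in footprints, with a sum over 7 markers of 31.7 to 61.3 CPM with zotatifin and 67.7 to 322 CPM with vehicle. CD14, a receptor of monocytes, had 0 footprints in all libraries. The sum over 4 endothelial markers was 0 to 2.60 CPM with zotatifin and 1.67 to 3.81 CPM with vehicle in footprints, and none of them passed the filter there. In footprints per RNA, 0 of 7 tested fibroblast and 0 of 3 tested myeloid markers were called by edgeR (0 and 0 at an unadjusted p under 0.05, 0 and 0 by DESeq2). In RNA, 5 of 8 tested fibroblast and 2 of 4 tested myeloid markers fell and 0 rose. There 0.907% of 13118 tested genes fell and 0.808% rose. The summed RNA of the 7 myeloid markers overlapped, at 13.8 to 24.1 CPM with zotatifin and 19.3 to 62.2 CPM with vehicle. In RNA, 1 of the 8 tested fibroblast markers leaned up without a call (log2 change 0.47). Some markers of both lists thus fell in footprints and in RNA, though the myeloid sum was apart only in footprints. Their part in the footprint and RNA results was not tested. In bulk tumours, fewer cells of a type and less RNA per cell cannot be told apart. Reads of human and mouse origin cannot be told apart in these counts either.

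The sequences at which the genes start are shown for 4 members: EIF4A2, which was called in footprints, EIF4B and PDCD4, whose footprints per RNA did not overlap between the treatments, and EIF4A1 beside its paralog. They are RefSeq sequences of the GRCh38.p14 build, 5′ to 3′ on the strand of the gene. Lower case marks the 10 bases before the annotated start and capitals mark the 20 bases from it.
EIF4A1, chr17:7572815-7572844, plus strand: ggcactccgcCCTAGTTTCTAAGGATCATG
EIF4A2, chr3:186783567-186783596, plus strand: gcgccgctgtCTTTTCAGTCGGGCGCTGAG
EIF4B, chr12:53006446-53006475, plus strand: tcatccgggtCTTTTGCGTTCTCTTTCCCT
PDCD4, chr10:110871918-110871947, plus strand: gagaagggccAGAGACTCTCCGAGGCGGCG
EIF4A2 and EIF4B both opened with the letters CTTTT, which opened 0.378% of 22199 start records of protein-coding genes, read on the strand of the gene. PDCD4 held AGAGA in its first 50 bases, as did 7.11% of those records, and so did 1 of the 3 start records of EIF4G1. These motifs were chosen after the sequences had been seen. Purines made up 70.0% of the first 50 bases of PDCD4, which placed it at the 96.7th percentile of all records, whose median was 52%. The same share was 36.0% for EIF4B (8.7th percentile), 42.0% for EIF4A2 (20.1st percentile) and 54.0% for EIF4A1 (60.0th percentile). EIF4A3, which was not called in any comparison, had 66.0% (92.5th percentile). The remaining members had 34.0 to 62.0% over 9 start records, the highest in 1 of the 2 records of EIF4G2 (85.2nd percentile). In EIF4A1 the first ATG began at base 18, against base 35 in EIF4A2 and base 29 in EIF4B. No ATG lay in the first 50 bases of PDCD4. The window is genomic and short, the annotated start need not be the one used in 22Rv1 cells, and a match is only a match of letters.

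The paralogs of the drug target were considered first. The comparison asks whether the helicase genes had a higher or lower level of footprints, relative to other genes, in zotatifin tumours. Levels were scaled within each assay, so a change shared by all genes cannot be seen. A footprint change also includes any change of RNA, and TE, the footprints per RNA, is given beside it. Footprints of EIF4A2 rose, the only call among the 10 members, while EIF4A1, which had most of the counts of the family, and EIF4A3 did not pass the test. EIF4A2 encodes a helicase close in sequence to EIF4A1, and it is also known as a partner of the CCR4-NOT deadenylase. It lies on chromosome 3, 186783577 to 186789897, with 5 small nucleolar RNA genes and the microRNA gene MIR1248 inside it.

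EIF4A2 had 179, 174 and 147 CPM of footprints in the 3 zotatifin tumours, against 102, 127 and 87.7 CPM in the 3 vehicle tumours. The lowest zotatifin library lay above the highest vehicle library. The means were 167 ± 17.3 CPM with zotatifin and 105 ± 19.7 CPM with vehicle (SD, n = 3 each). The fold change was 1.57, a log2 change of 0.65 ± 0.13 (SE; edgeR quasi-likelihood test, adjusted p = 0.0032, 95% interval 0.37 to 0.92). The call was kept in all 11 alternative settings, with adjusted p from 7.9e-05 to 0.044. These levels rested on 142 to 227 counts per zotatifin library and 138 to 228 per vehicle library.

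RNA of EIF4A2 moved the same way. It stood at 136, 147 and 131 CPM with zotatifin and at 81.8, 122 and 90.7 CPM with vehicle, again without overlap, though vehicle tumour 2 came close to the zotatifin tumours. The log2 change was 0.49 ± 0.14 and missed the threshold (adjusted p = 0.066, 95% interval 0.20 to 0.78). In the authors' deposited RNA table EIF4A2 had a log2 change of 0.49 ± 0.15 and an adjusted p of 0.045. Over all genes, 2.47% of 12661 passed 0.05 in the authors' deposited table, 1.17% as a rise and 1.3% as a fall. Translational efficiency (TE, the footprint CPM over the RNA CPM of 1 tumour) was 1.32, 1.18 and 1.12 with zotatifin and 1.24, 1.04 and 0.967 with vehicle. The groups overlapped, and the change of TE was 0.19 ± 0.20 on the log2 scale (adjusted p = 0.705).

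EIF4A1 is the most abundant eIF4A of most proliferating cells and the main target of the drug. The gene lies on chromosome 17, 7572825 to 7579006, holds 3 small nucleolar RNA genes, and is overlapped by the read-through transcript SENP3-EIF4A1. Its footprints were 1826, 1974 and 1791 CPM with zotatifin and 1520, 1686 and 1711 CPM with vehicle. All 3 zotatifin libraries lay above the vehicle libraries, but the log2 change of 0.18 ± 0.10 did not pass (adjusted p = 0.29, 95% interval −0.02 to 0.39). EIF4A1 RNA was 1386, 1474 and 1371 CPM with zotatifin and 1037, 1309 and 1207 CPM with vehicle, with a log2 change of 0.25 ± 0.13 (adjusted p = 0.29, 95% interval −0.01 to 0.51). TE of EIF4A1 was 1.32 ± 0.0165 with zotatifin and 1.39 ± 0.0913 with vehicle (SD, n = 3 each), a log2 change of −0.04 ± 0.16 (adjusted p = 0.94). Whether the paralogs differed in their change was not tested.

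EIF4A3, the helicase that anchors the exon junction complex to spliced mRNA and takes no part in eIF4F, had the smallest footprint change of the 3 paralogs. It had 336, 335 and 340 CPM with zotatifin and 310, 339 and 323 CPM with vehicle. The vehicle libraries enclosed 2 of the 3 zotatifin libraries, and the log2 change was 0.06 ± 0.10 (adjusted p = 0.79). RNA changed by 0.07 ± 0.12 (adjusted p = 0.80) and TE by 0.02 ± 0.15 (adjusted p = 0.97).

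The make-up of the family was read as the share of each paralog in the summed counts of the 3 genes, a share of reads and not of molecules. EIF4A2 took 7.64, 7.01 and 6.45% of the footprint counts with zotatifin and 5.27, 5.88 and 4.13% with vehicle. Its mean share was 7.03 ± 0.596% with zotatifin and 5.09 ± 0.887% with vehicle (SD, n = 3 each). The groups did not overlap, and the exact permutation test gave p = 0.1 (two-sided), the smallest that 3 against 3 libraries allow. In RNA the share of EIF4A2 was 7.96 ± 0.145% with zotatifin and 6.69 ± 0.730% with vehicle (exact permutation test, p = 0.1). The share of EIF4A3 was lower with zotatifin, with 14.2 ± 0.720% of footprint counts with zotatifin and 15.7 ± 0.418% with vehicle, and with 10.6 ± 0.355% of RNA counts with zotatifin and 12 ± 0.822% with vehicle (exact permutation test, p = 0.1 in both). A share also falls when the other genes of the sum rise, and the own level of EIF4A3 was 337 CPM with zotatifin and 324 CPM with vehicle in footprints, and 183 CPM with zotatifin and 175 CPM with vehicle in RNA. The share of EIF4A1 was 78.7 ± 0.750% of footprint counts with zotatifin and 79.2 ± 1.24% with vehicle (p = 0.6, exact permutation test). In RNA it was 81.5 ± 0.450% with zotatifin and 81.3 ± 0.887% with vehicle (p = 0.7, exact permutation test). In a single library, the exact binomial 95% interval of the EIF4A1 share was 77.7 to 81.2% where fewest footprints were counted (zotatifin tumour 2, 2025 counts). These intervals cover counting error only. The 3 paralogs resemble one another, and RefSeq names 13 pseudogenes after EIF4A1, 5 after EIF4A2 and 1 after EIF4A3, so reads may have been counted for the wrong copy.

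**Figure D1:**
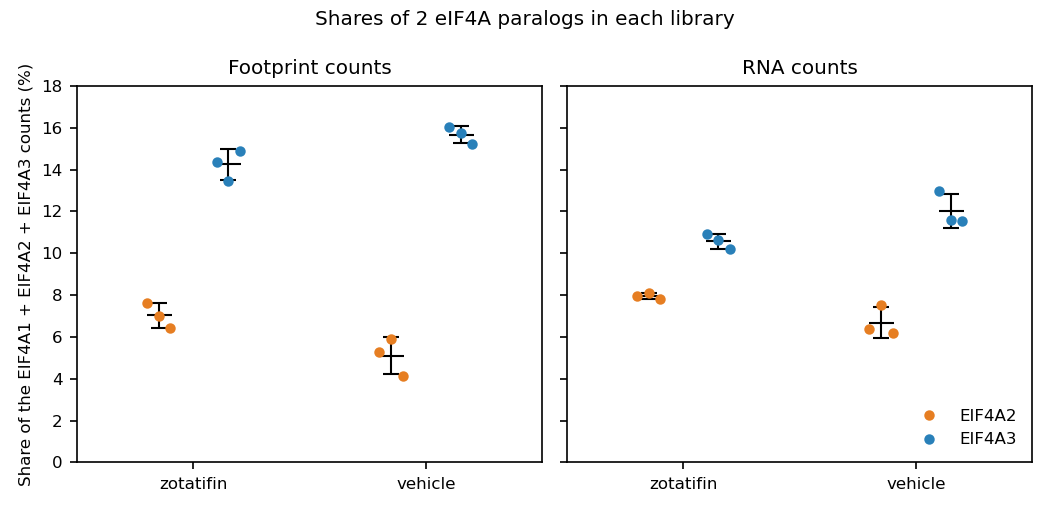
Share of EIF4A2 (orange) and EIF4A3 (blue) in the summed counts of the 3 eIF4A genes (y axis, %) for footprints (left) and RNA (right). Each point is 1 library, bars are mean ± SD (n = 3), and the share of EIF4A2 runs from 6.45 to 7.64% with zotatifin, above 4.13 to 5.88% with vehicle, in footprints.

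The genes most like EIF4A1 across the 12 libraries, among 4888 genes with at least 50 counts on average in each assay, were H3F3C (Pearson r = 0.976), H3F3B (0.963) and CKB (0.949). H3F3B and H3F3C encode variants of histone H3 with closely similar sequences, so their reads can be mixed, and CKB encodes a creatine kinase. For EIF4A2 they were ALDH5A1 (0.959), PGAM2 (0.95) and TXNRD2 (0.948), enzymes of GABA breakdown, glycolysis and mitochondrial redox control. EIF4A1 and EIF4A2 correlated with each other at 0.839. These values describe 12 libraries from the same tumours, after the mean of each assay was taken out. They include the difference between the treatments, and each gene was picked as the closest of 4888.

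The cap-binding protein and its scaffolds were compared next. None of these 4 genes passed the test in either assay, and their footprints leaned in different directions. EIF4E had 197, 202 and 218 CPM of footprints with zotatifin and 203, 183 and 179 CPM with vehicle. Vehicle tumour 1 lay among the zotatifin tumours, and the log2 change was 0.13 ± 0.11 (adjusted p = 0.53). EIF4E RNA changed by 0.11 ± 0.13 (adjusted p = 0.71).

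EIF4G1, the main scaffold of eIF4F, had 338, 229 and 320 CPM of footprints with zotatifin and 275, 270 and 339 CPM with vehicle. Zotatifin tumour 2 was the lowest of the 6 in footprints and also in RNA, where EIF4G1 had 737, 462 and 616 CPM with zotatifin and 529, 612 and 623 CPM with vehicle. The log2 change was 0.02 ± 0.12 in footprints (adjusted p = 0.94) and 0.04 ± 0.15 in RNA (adjusted p = 0.92). TE of EIF4G1 in that tumour was 0.497, between the values of the other 2 zotatifin tumours (0.458 and 0.520).

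EIF4G2 encodes DAP5, a relative of the scaffold that lacks the site for eIF4E and serves other modes of initiation. Its footprints were 439, 396 and 413 CPM with zotatifin and 520, 450 and 462 CPM with vehicle, and its RNA was 903, 873 and 862 CPM with zotatifin and 1080, 987 and 920 CPM with vehicle. All zotatifin libraries lay below the vehicle libraries in both assays. Neither the footprint change of −0.20 ± 0.10 (adjusted p = 0.26) nor the RNA change of −0.18 ± 0.12 (adjusted p = 0.45) passed the test. TE of EIF4G2 was 0.473 ± 0.0169 with zotatifin and 0.480 ± 0.0234 with vehicle (SD, n = 3 each).

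EIF4G3 encodes a further scaffold of the eIF4G family. It had the largest negative footprint change of the 10 members. Its footprints were 33.8, 35.6 and 36.2 CPM with zotatifin and 47.7, 44.4 and 50.8 CPM with vehicle, from 29 to 56 counts per zotatifin library and 80 to 97 per vehicle library. The groups did not overlap, and the log2 change of −0.43 ± 0.17 did not pass (adjusted p = 0.12, 95% interval −0.78 to −0.08). RNA of EIF4G3 was 113, 74.8 and 111 CPM with zotatifin and 112, 105 and 106 CPM with vehicle, with zotatifin tumour 2 again lowest. The change of TE was −0.30 ± 0.23 (adjusted p = 0.58), and at these counts a change of this size could not be told from 0.

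**Figure D2:**
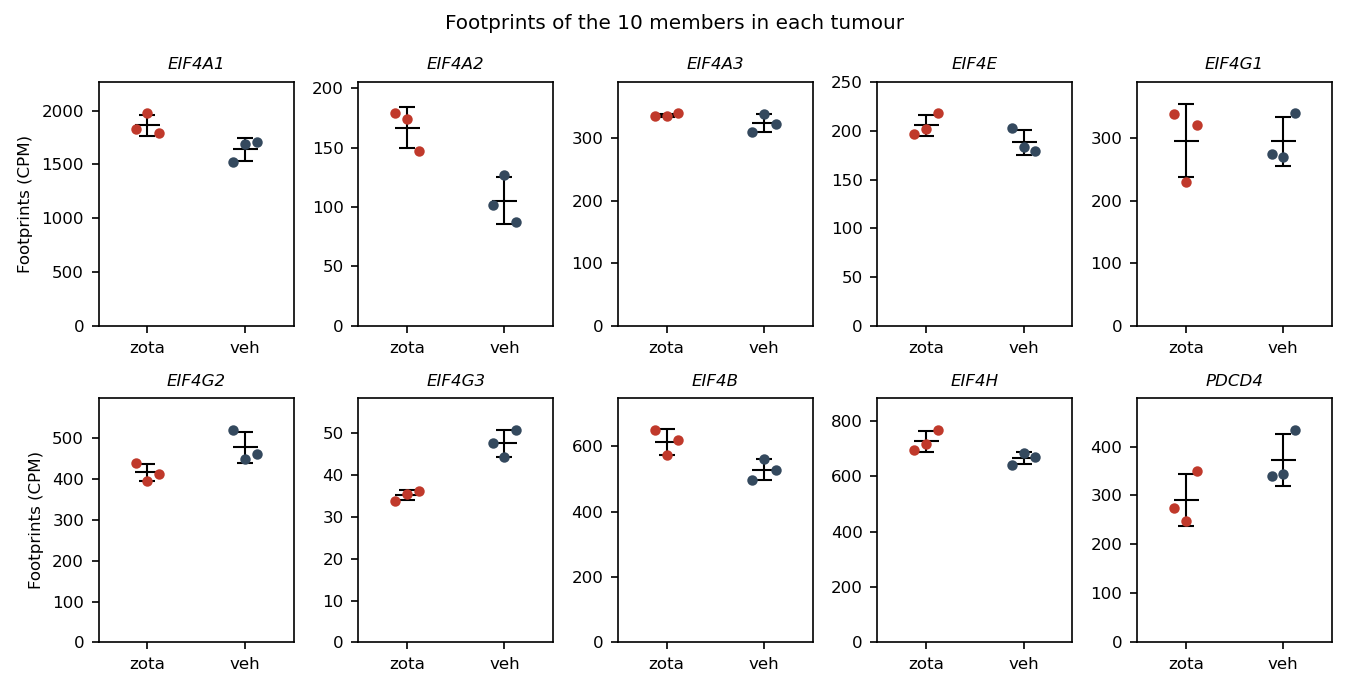
Footprint level (y axis, CPM, a scale of its own in each panel, from 0) of the 10 members in the 3 zotatifin tumours (zota, red) and the 3 vehicle tumours (veh, dark). Points are tumours 1 to 3 from left to right and bars are mean ± SD; EIF4A2 stands at 147 to 179 CPM with zotatifin against 87.7 to 127 CPM with vehicle.

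For the cofactors and the inhibitor, footprints leaned one way while RNA stayed near its vehicle level or leaned the other way, and none passed the test in footprints or RNA. EIF4B, an RNA-binding stimulator of eIF4A, had 651, 573 and 620 CPM of footprints with zotatifin and 496, 562 and 529 CPM with vehicle. Its RNA was 1428, 1373 and 1546 CPM with zotatifin and 1699, 1456 and 1494 CPM with vehicle. Footprints were thus higher in every zotatifin tumour, while RNA overlapped and had a lower mean. The log2 change was 0.22 ± 0.10 in footprints (adjusted p = 0.19) and −0.10 ± 0.12 in RNA (adjusted p = 0.72). TE of EIF4B was 0.456, 0.417 and 0.401 with zotatifin and 0.292, 0.386 and 0.354 with vehicle, with no overlap. The change of TE was 0.35 ± 0.16 (adjusted p = 0.28, 95% interval 0.03 to 0.67), and with the tumour as a block it was 0.34 ± 0.12 (adjusted p = 0.071).

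EIF4H, a smaller cofactor related to eIF4B, had 695, 716 and 767 CPM of footprints with zotatifin and 641, 685 and 671 CPM with vehicle. The zotatifin tumours lay just above the vehicle tumours, with a log2 change of 0.13 ± 0.10 (adjusted p = 0.49). RNA was 473 ± 11.7 CPM with zotatifin and 475 ± 13.4 CPM with vehicle (SD, n = 3 each; log2 change −0.01 ± 0.12, adjusted p = 0.99). The change of TE was 0.16 ± 0.14 (adjusted p = 0.64).

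PDCD4 lies on chromosome 10, 110871928 to 110900006, and its last part overlaps BBIP1. Its footprints were 274, 248 and 350 CPM with zotatifin and 339, 345 and 434 CPM with vehicle. Zotatifin tumour 3 overlapped 2 of the vehicle tumours, and the log2 change of −0.34 ± 0.12 missed the threshold (adjusted p = 0.087, 95% interval −0.59 to −0.09). With 1 library left out it lay between −0.51 (without zotatifin tumour 3, adjusted p = 0.019) and −0.22 (without vehicle tumour 3, adjusted p = 0.371). It was −0.24 without zotatifin tumour 2 (adjusted p = 0.295) and −0.30 without zotatifin tumour 1 (adjusted p = 0.271), and only the fit without zotatifin tumour 3 passed. RNA of PDCD4 was 156, 138 and 173 CPM with zotatifin and 138, 147 and 164 CPM with vehicle, a log2 change of 0.06 ± 0.12 (adjusted p = 0.85).

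TE of PDCD4 did not overlap between the groups. It was 1.76, 1.79 and 2.02 with zotatifin and 2.46, 2.35 and 2.65 with vehicle, so that every zotatifin tumour lay below every vehicle tumour. The change of TE was −0.37 ± 0.18 (adjusted p = 0.33, 95% interval −0.75 to 0.00) in the fit without pairing. With footprints and RNA of 1 tumour paired, PDCD4 fell in TE, with a log2 change of −0.38 ± 0.11 (adjusted p = 0.025). In that paired fit, 8.66% of 9454 genes were called (819), 3.62% as a rise and 5.05% as a fall, against 1.69% (160) without pairing. The paired call of PDCD4 was lost without zotatifin tumour 1 (adjusted p = 0.115) or 2 (0.067) or vehicle tumour 1 (0.054) or 3 (0.10), while the change stayed between −0.46 and −0.35 in all 6 fits.

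The authors' deposited table of footprints relative to RNA placed 3 of the 10 members past an FDR of 0.05, where 18.3% of its 11446 genes lay (8.09% as a rise, 10.2% as a fall). On the log2 scale, converted from natural logs, the estimates in the authors' deposited table were −0.54 for PDCD4 (FDR 1.01e-12), 0.29 for EIF4B (FDR 1.49e-07) and 0.26 for EIF4H (FDR 3.62e-05). For EIF4A2 the authors' deposited table gave 0.23 (FDR 0.108), and for EIF4A1 −0.05 (FDR 0.282). For EIF4G3 it gave −0.36 (FDR 0.096) and for EIF4G2 0.09 (FDR 0.283), where the fitted TE changes were −0.30 and 0.01. For all of these genes the signs were those of the fitted TE changes. For the 3 that passed, the FDR was far below the adjusted p of the fits over tumours. In the authors' deposited table EIF4A3 (−0.05), EIF4E (−0.01) and EIF4G1 (−0.01) had the opposite sign to the fitted TE changes, all near 0 (FDR 0.686 to 0.978). The fitted changes were 0.02, 0.05 and 0.01. Mean TE itself was lower with zotatifin for EIF4A3 (1.84, vehicle 1.86) and EIF4G1 (0.492, vehicle 0.502). The TE fit was scaled over genes that passed in both assays, so near 0 its sign can differ from that of the TE ratios. The scale of that estimate was read from the values, since the model behind it is not given in the sources used here.

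**Figure D3:**
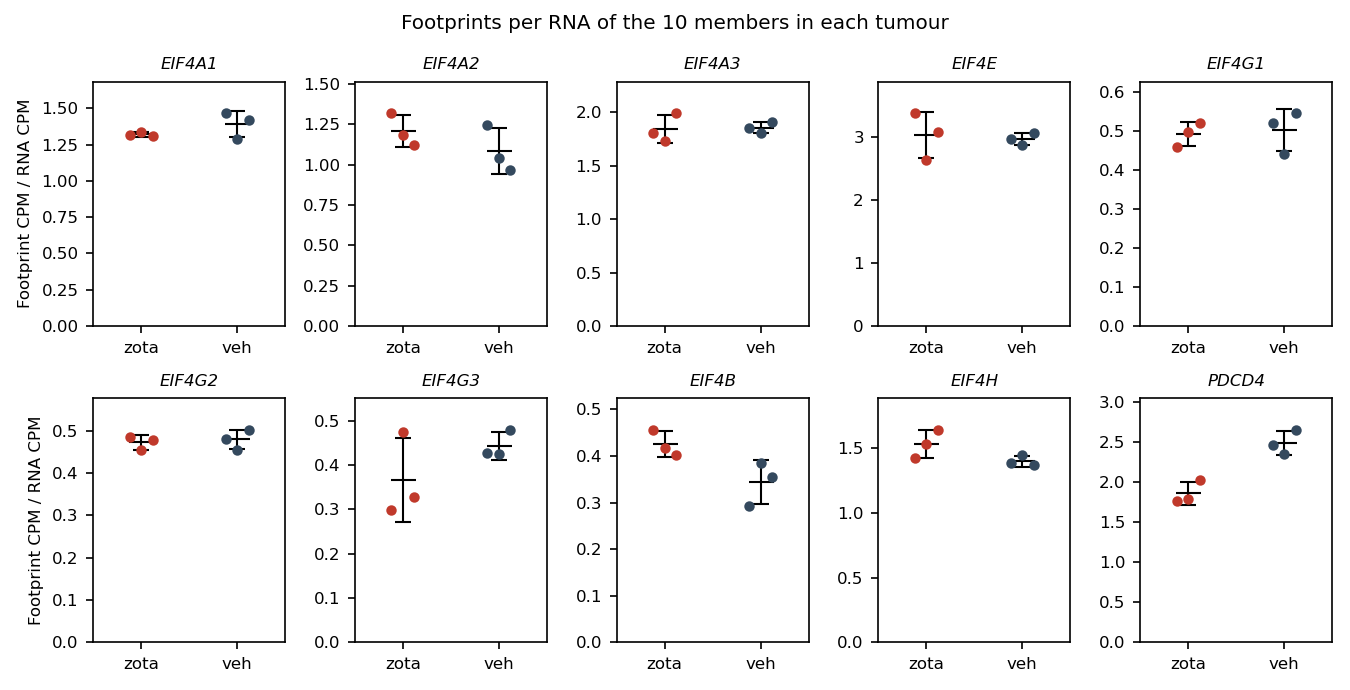
Footprint CPM over RNA CPM (y axis, from 0, a scale of its own in each panel) of the 10 members in each of the 3 zotatifin (zota, red) and 3 vehicle (veh, dark) tumours, points being tumours 1 to 3 from left to right and bars mean ± SD. PDCD4 lies at 1.76 to 2.02 with zotatifin, below 2.35 to 2.65 with vehicle, and EIF4B at 0.401 to 0.456 with zotatifin, above 0.292 to 0.386 with vehicle.

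Of the 10 members, 1 rose and 0 fell in footprints, where 7.14% of 9544 tested genes were called (3.22% as a rise and 3.92% as a fall). At an unadjusted p under 0.05 there were 4: EIF4A2, PDCD4, EIF4G3 and EIF4B. EIF4B, with the largest p of these, ranked 1881 by p among the 9544 genes. The median log2 change of the members was 0.09, beside 0.00 over all genes tested, and the members ran from −0.43 for EIF4G3 to 0.65 for EIF4A2. In 6 of the 10 the groups did not overlap in footprints, 4 with zotatifin higher and 2 with zotatifin lower, against 26.4% of all tested genes (12.9% higher and 13.5% lower). In RNA edgeR called 0 of 10, where 1.72% of 13118 genes were called (0.808% as a rise and 0.907% as a fall). At an unadjusted p under 0.05 there was 1, EIF4A2, which DESeq2 called as well, where it called 2.67% of all genes with an adjusted p. The median RNA change of the members was 0.05, beside 0.00 over all genes, and in 3 members the groups did not overlap, 2 higher and 1 lower, against 23.1% of all genes (12.3% higher and 10.9% lower). For TE edgeR called 0 of 10, where 1.69% of 9454 genes were called (0.476% as a rise and 1.22% as a fall), with 1 member, EIF4B, at an unadjusted p under 0.05. With footprints and RNA paired by tumour, 1 of 10 was called for TE (PDCD4, adjusted p = 0.025), where 8.66% of genes were called. DESeq2 called 0 of 10 for TE, where it called 3.5% of all genes, and 1 of 10 in footprints, where it called 8.47%. The median change of TE was 0.01, beside 0.02 over all genes, and in 2 members the groups did not overlap, 1 higher and 1 lower, against 26.3% of all genes (10.7% higher and 15.6% lower).

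**Figure D4:**
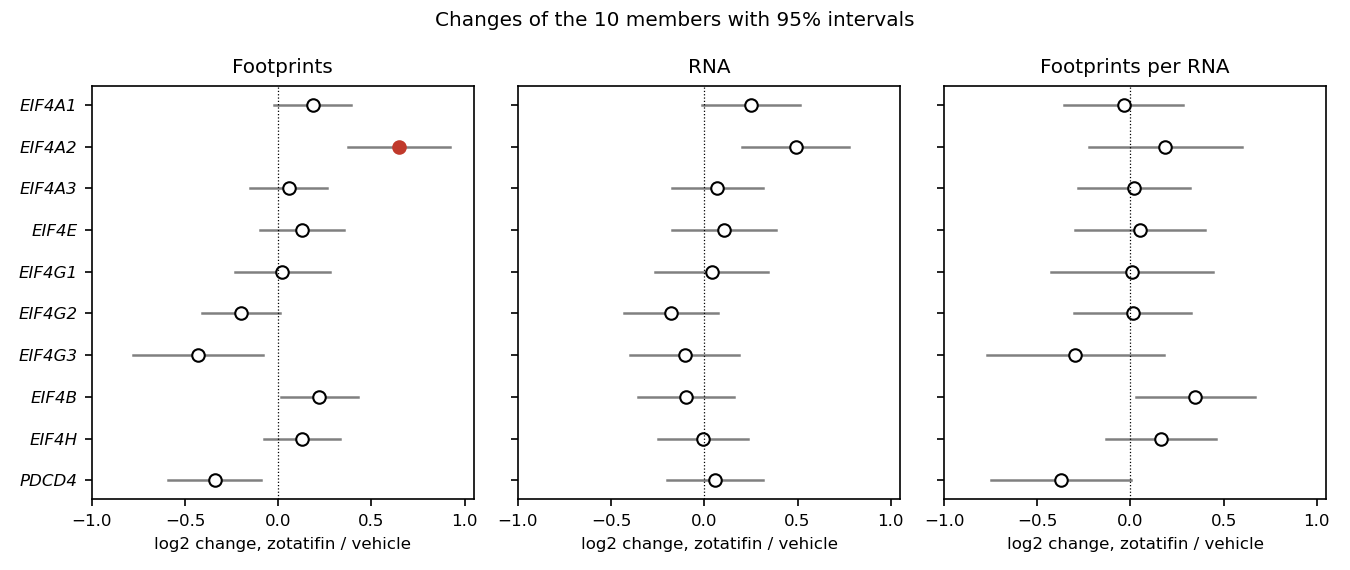
Log2 change, zotatifin over vehicle (x axis), of the 10 members in footprints, RNA and footprints per RNA, with 95% intervals as lines. The filled red point marks the 1 call at an adjusted p under 0.05 (EIF4A2 footprints, 0.65), and all open points missed it. Footprints per RNA are from the edgeR fit without pairing. In the fit paired by tumour, not drawn, PDCD4 passed (−0.38, adjusted p = 0.025).

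The members spanned a wide range of TE, in which length cancels if both assays were counted over the same part of the transcript. Which part was counted is not given in the sources used here, so long untranslated ends could lower a value. In vehicle tumours EIF4E was highest at 2.97 ± 0.0993 (SD, n = 3), at the 92.5th percentile of 9452 genes, followed by PDCD4 at 2.49 ± 0.151 (88.6th percentile) and EIF4A3 at 1.86 ± 0.0505 (80.6th percentile). EIF4H (1.40 ± 0.0424) and EIF4A1 (1.39 ± 0.0913) overlapped, and EIF4A2 lay below both at 1.08 ± 0.143. The 3 scaffolds EIF4G1 (0.502 ± 0.0542), EIF4G2 (0.480 ± 0.0234) and EIF4G3 (0.444 ± 0.0311) overlapped one another at the 27.3rd to 23.3rd percentile. EIF4B was lowest at 0.344 ± 0.0477 (16.1st percentile). In zotatifin tumours EIF4E was again highest at 3.04 ± 0.369. There PDCD4 (1.86 ± 0.143) overlapped EIF4A3 (1.84 ± 0.133), and EIF4B (0.425 ± 0.0281) overlapped EIF4G3 (0.367 ± 0.0950).

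Partners of the complex were counted from lists of known interactors. Of 11 tested eIF4E relatives, 4E-binding proteins and eIF4E kinases, edgeR called 0 in footprints (2 at an unadjusted p under 0.05, 0 by DESeq2), with a median log2 change of 0.15. Over all genes in footprints, edgeR called 7.14% and DESeq2 8.47%. In RNA edgeR called 0 of 12 (2 at an unadjusted p under 0.05, 1 by DESeq2), where edgeR called 1.72% and DESeq2 2.67% of all genes. In TE edgeR called 0 of 11, where it called 1.69% of all genes, and the median was 0.21, beside 0.02 over all genes. Of 5 genes of poly(A)-binding proteins and proteins that bind them, 3 fell and 0 rose in footprints, where 3.92% of all tested genes fell. The median of the 5 was −0.51. The 3 that fell are named here. These were PAIP2, an inhibitor of poly(A)-binding protein, at 153 ± 19.4 CPM with zotatifin and 243 ± 15.4 CPM with vehicle (log2 change −0.65 ± 0.12, adjusted p = 9.0e-04), the poly(A)-binding protein PABPC4 (−0.68 ± 0.14, adjusted p = 0.0032), and PAIP1, which stimulates translation (−0.40 ± 0.12, adjusted p = 0.038). Whichever library was left out, PAIP1 was no longer called (largest adjusted p 0.179), nor was it by DESeq2 (0.079), and the other 2 kept their calls. PAIP2 also fell in TE, with a log2 change of −0.75 ± 0.16 (adjusted p = 0.013), a call lost when a vehicle tumour was left out (up to 0.091). With footprints and RNA paired by tumour, the TE change of PAIP2 was −0.73 (adjusted p = 1.3e-04). In that fit 5.05% of all tested genes fell.

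Of 11 CCR4-NOT genes, which encode the deadenylase known to bind eIF4A2, 2 fell and 0 rose in footprints with a median of −0.20, where 3.92% of all tested genes fell. They were the scaffold CNOT1 (−0.43 ± 0.12, adjusted p = 0.025) and CNOT11 (−0.57 ± 0.16, adjusted p = 0.026). RNA of the deadenylase subunit CNOT8 rose to 69.5 ± 5.37 CPM with zotatifin, against 43.2 ± 1.00 CPM with vehicle (log2 change 0.68 ± 0.13, adjusted p = 0.012). TE of CNOT8 (−0.95 ± 0.19, adjusted p = 0.0073) and CNOT1 (−0.76 ± 0.18, adjusted p = 0.019) fell, where 1.22% of all tested genes fell in TE. Apart from TE of CNOT8, these calls were lost without at least 1 library: CNOT1 footprints without vehicle tumour 1 or 3 or zotatifin tumour 1 or 2 (adjusted p up to 0.111), CNOT11 without all but vehicle tumour 2 (up to 0.092), CNOT8 RNA without vehicle tumour 1 or 3 or zotatifin tumour 3 (up to 0.074), and TE of CNOT1 without zotatifin tumour 1 or any vehicle tumour (up to 0.095). DESeq2 did not call CNOT11 in footprints (0.096). With footprints and RNA paired by tumour, TE of CNOT8 (−0.96, adjusted p = 1.9e-04) and CNOT1 (−0.78, adjusted p = 1.2e-05) fell. There 5.05% of all tested genes fell. Of 6 exon junction partners of eIF4A3, 1 rose and 0 fell in footprints, where 3.22% of all tested genes rose. It was CASC3, a core subunit, at 114 ± 10.0 CPM with zotatifin and 75 ± 6.68 CPM with vehicle (0.60 ± 0.13, adjusted p = 0.0062), a call lost without vehicle tumour 1 (0.072). TE of CASC3 rose by 0.64 ± 0.17 (adjusted p = 0.045), where 0.476% of all tested genes rose. That TE call was lost whichever of the 6 tumours was left out (up to 0.213). Paired by tumour, TE of CASC3 rose by 0.63 (adjusted p = 0.0028), where 3.62% of all tested genes rose.

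Of 11 genes of kinases and their complexes, a phosphatase and ubiquitin ligases that act upstream on PDCD4, eIF4B or the 4E-binding proteins, 2 fell and 0 rose in footprints, with a median of −0.07, where 3.92% of all tested genes fell and 3.22% rose. PPP2CA, the catalytic subunit of protein phosphatase 2A, had 280 ± 16.1 CPM of footprints with zotatifin and 366 ± 20.6 CPM with vehicle (log2 change −0.39 ± 0.10, adjusted p = 0.020). Its RNA rose to 245 ± 15.1 CPM with zotatifin, against 178 ± 2.20 CPM with vehicle (0.46 ± 0.12, adjusted p = 0.045). TE of PPP2CA fell by 0.82 ± 0.15 (adjusted p = 0.0029), also without any 1 tumour. Paired by tumour, the TE change of PPP2CA was −0.815 (adjusted p = 2.2e-06), where 5.05% of all tested genes fell. The footprint call was lost without zotatifin tumour 1 or vehicle tumour 1 or 2 (up to 0.117), and the RNA call without any library but zotatifin tumour 2 (up to 0.172). RPS6KA3, the kinase RSK2, fell in footprints by 0.70 ± 0.18 (adjusted p = 0.018, lost without zotatifin tumour 2 or vehicle tumour 1 or 3, up to 0.090, and 0.054 by DESeq2). Of 5 other helicases of initiation or mRNA storage, DDX6 fell by 0.38 ± 0.11 (adjusted p = 0.034, lost without zotatifin tumour 2 or 3 or vehicle tumour 1 or 3, up to 0.173, and 0.056 by DESeq2), and 0 rose.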

How the data were processed

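Raw counts per transcript were deposited for footprints and for RNA, per the file headers, and each count column was matched to 1 sample. The submitters' processing notes name cutadapt 2.3, Bowtie2 2.3.5, UMI-tools, DESeq2 and the build hg38. How strand was treated, which part of a transcript was counted and whether mouse reads were removed is not given in the sources used here. In the authors' deposited RNA table, per the file headers, each gene has a mean signal (normalised counts), a log2 change with its SE, a test score, a p-value and an adjusted p-value. The estimate in the authors' deposited footprint table was read as a natural log of the TE change: across 1566 well-covered genes (mean over 200 counts in each assay) it weighed log2 footprint and RNA changes by 0.665 and −0.666, where the natural log of 2 is 0.693.

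Groups came from titles and column names, since the treatment label of 6 samples contradicts its title. Where a column name gives a drug code, it was read as zotatifin by matching the titles. Whole tables were tested with edgeR 4.0.16 (R 4.3.3): filterByExpr (minimum count 10, minimum total 15), TMM, robust quasi-likelihood F test of zotatifin over vehicle in footprints and in RNA, and the interaction of assay and treatment over all 12 libraries for TE. Calls are Benjamini-Hochberg adjusted p under 0.05. Levels are TMM-scaled CPM, and intervals are 95%. Log2 CPM with a prior count of 2 served for correlations. The fits were tested on simulated data. The members and lists were chosen with earlier results of these data known. All members are named, as is every called gene of the lists of partners, and of marker lists only counts and levels are given.

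Same-numbered footprint and RNA libraries of a treatment correlated at 0.217 to 0.440 after group means were removed (6 pairs, 4889 genes), and those with other numbers at −0.381 to 0.119. Both came from the same lysates by protocol, so a number marks a tumour within a treatment. The tumour as a block was the paired fit. Alternatives were median-of-ratios scaling, no count filter, DESeq2 1.42.0, contrasts from the 12-library model, blocks and each library or tumour left out. Levels in CPM were not ranked between genes, because no transcript lengths were used here. TE was ranked between members, and the shares of the paralogs in their summed counts depend on length as well.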

Additional observations from a re-analysis of the deposited data

How the results depend on the processing

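Over the 10 members and the alternatives to the unpaired fits, 311 of 320 values stayed on their side of the threshold, 9 moved past it and 0 fell back or reversed a call. The 9 were PDCD4 and EIF4A2. In the paired TE fit with 1 tumour left out, not among the 320, the PDCD4 call was lost in 4 of 6 fits (adjusted p 0.054 to 0.115). Of the members, 1 was called in footprints, and 2 (with PDCD4) with no count filter (adjusted p = 0.034) or with the replicate block (0.027); leaving out 1 library gave 1 to 2. In RNA 0 were called, and 1 (EIF4A2) with no filter (0.0074), DESeq2 (0.044), the replicate block (0.014) and the 12-library model (0.045); leaving out 1 library gave 0 to 1. For TE 0 were called, and 1 (PDCD4) with the tumour as replicate block; that fit, with 1 tumour left out, an alternative added after the data were seen, gave 0 to 2 members (with EIF4B at 0.043 without vehicle tumour 2) and 454 to 661 genes. The 681 genes called in footprints became 905 with no filter, 796 with the replicate block, 421 with DESeq2 and 418 in the 12-library model. Without 1 library they became 185 to 726. The 225 called in RNA became 624 with no filter, 527 with the replicate block and 350 in the 12-library model, and 11 to 396 without 1 library. The 160 called for TE became 819 with the tumour as replicate block, and 56 to 132 without 1 tumour. Numbers did not clearly pair zotatifin with vehicle tumours (same number −0.095 to 0.181, other numbers −0.196 to 0.169), so the block across treatments is given only here. The change in the share of EIF4A1 (zotatifin minus vehicle) was −0.516 percentage points in footprints, −0.955 to 0.192 without 1 library, and 0.187 in RNA, −0.123 to 0.695 without 1 library. The share per length was not run, since it needs coding lengths. Counts of 29 to 97 limit EIF4G3 footprints.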
